A study of Homo sapiens with 9 samples.

Results

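The regions described here were 4552 H3K4me3 peaks of ordinary width in A549 cells, a human lung adenocarcinoma line, at which no anti-HA peak was listed. They were chosen from the H3K4me3 peak list by 3 conditions: a place on chromosomes 1 to 22 or X, a width from 1000 bp to just under 2000 bp, and no shared base with any peak of the list from HA-BAZ2B cells or of the list from untagged cells. They were 4552 of 9457 H3K4me3 peaks of that width on those chromosomes, and of 17630 H3K4me3 peaks in all. They are called unmatched peaks below, and the other 4905 peaks of the same width are called matched peaks. Peak width and overlap with the anti-HA lists chose the members, so shares that follow from these alone are a description and carry no test.

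CUT&Tag, in which an antibody directs a transposase to its target in permeabilised cells, was applied to 3 groups of 3 libraries. The HA-BAZ2B libraries came from cells with an HA tag inserted at the 5′ end of the endogenous BAZ2B gene, with an antibody to HA. The wild-type (WT) libraries used that antibody on A549 cells without the tag and gave the background of the assay. The H3K4me3 libraries used an antibody to the histone mark on the tagged cells. All 9 libraries received 35 ng of Drosophila chromatin for spike-in, and the labels describe an siRNA transfection for every library without naming its target. The sources used here do not say whether the tagged line is 1 clone or whether the replicates were separate cultures. For H3K4me3 replicates 2 and 3 the antibody label names a mark with another final digit than in replicate 1, and the sample titles were followed.

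H3K4me3, trimethylation of lysine 4 of histone H3, marks the nucleosomes that flank active and poised promoters, and the methylation is deposited by SET1 and MLL complexes. BAZ2B carries a bromodomain, which binds acetylated histones, and works as a partner subunit of ISWI remodelers, enzymes that slide and space nucleosomes. Promoters are also generally open to the transposase, and untagged cells measure how much anti-HA signal arises without the tag.

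Each group was deposited as 1 list of peaks present in at least 2 of its 3 replicates, with every row taken from a single library. The peak names show replicate 1 for H3K4me3, replicate 3 for HA-BAZ2B and replicate 2 for WT. The lists hold no value per replicate, so no test across samples could be made, and all intervals below are exact 95% intervals over peaks of these lists (Clopper-Pearson for shares, order statistics for medians). They cover counting error only. Total read depth is not recorded in the lists, but the summit pileup could be solved from each row. The pileup is the number of fragments stacked over a peak's summit, and the expected pileup is the peak caller's local background at that place. No control is named in the sources used here. The expected pileup may therefore include the peak's own fragments and need not be independent of the pileup. The deposited fold enrichment and p-value depend only on these 2 quantities, and a whole-number pileup was found for 17630 of 17630 H3K4me3 peaks, 7027 of 7027 HA-BAZ2B peaks and 2451 of 2451 WT peaks.

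The unmatched peaks had lower H3K4me3 piles than the matched peaks on a lower local background, and the fold enrichment of the 2 sets was nearly the same. The share of unmatched peaks fell steadily with H3K4me3 pileup, and this fall was seen in every width class and every fold enrichment class, with smaller differences between those classes at a given pileup. Absence from the list need not mean that no anti-HA peak was called. Where, for 667 members, an unmatched peak was the only H3K4me3 peak between neighbouring peaks of the HA-BAZ2B list, the numbering of that library showed, in nearly all cases, a further peak in the same interval that was not in the list. The members are therefore called H3K4me3 peaks without a listed anti-HA peak, and not peaks without anti-HA signal.

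Of the 9457 peaks of this width, 48.1% were unmatched (47.1 to 49.1). The same condition on overlap held for 58.7% of the 16997 H3K4me3 peaks of any width on these chromosomes, for 77.0% of those under 1000 bp and for 33.4% of those of 2000 bp or more. Because the rule itself fixes these shares, nothing is read from them. Of the matched peaks, 3447 overlapped the HA-BAZ2B list only, 1364 overlapped both anti-HA lists and 94 overlapped the WT list only. The unmatched peaks covered 6.07 Mb of hg19.

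The summit pileup of the unmatched peaks ranged from 9 to 165 fragments with a median of 75 (74 to 76) and an interquartile range of 58 to 91. The matched peaks had a median of 100 fragments (99 to 101) and an interquartile range of 83 to 116. Within the matched peaks the median was 97 with the HA-BAZ2B list only, 89 with the WT list only and 110 with both. The order of the medians therefore ran from no anti-HA peak through 1 list to both lists, and the distributions overlapped broadly, since matched peaks began at 12 fragments.

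The local background followed the same order. The expected pileup had a median of 6.83 fragments at unmatched peaks (6.70 to 6.997) and of 9.78 at matched peaks (9.63 to 9.93). It was 9.27 with the HA-BAZ2B list only and 10.99 with both lists. Fold enrichment, the ratio of these 2 quantities after 1 is added to each, hardly separated the sets. Its median was 9.21 at unmatched peaks (9.13 to 9.31; interquartile range 7.66 to 10.8) and 9.23 at matched peaks (9.16 to 9.31). Those intervals overlap almost entirely. The −log10 q value, which grows with the number of fragments, did separate them, with a median of 44.7 (44.1 to 45.4) against 58.8 (58.4 to 59.3).

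**Figure D1:**
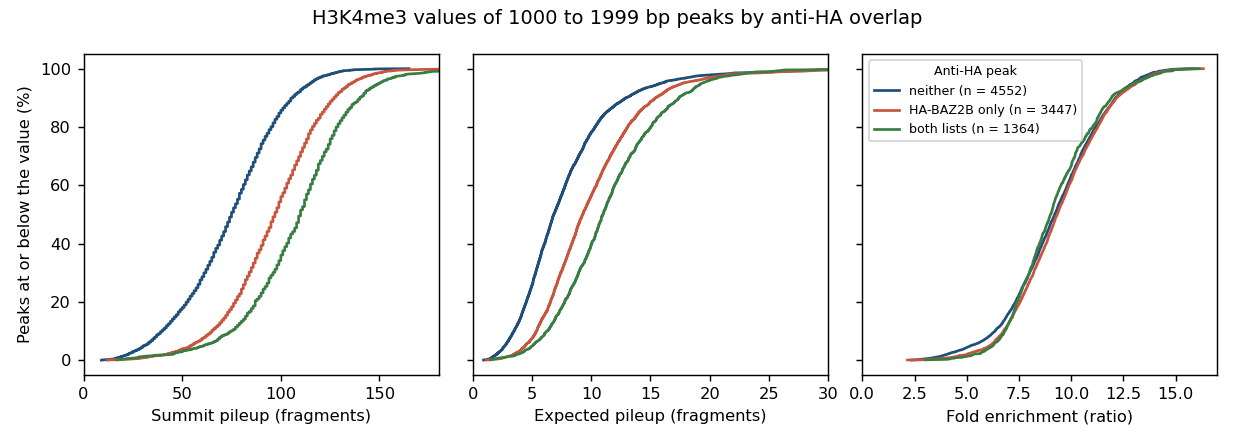
Cumulative distributions of H3K4me3 summit pileup and expected pileup (fragments) and of fold enrichment (ratio) for ordinary-width peaks, by overlap with no anti-HA list (4552 peaks), the HA-BAZ2B list only (3447) or both lists (1364); the 94 peaks with the WT list only are not drawn, and the first 2 axes end at 180 and 30 fragments. The 3 curves are separate for both pileups, with medians of 75, 97 and 110 fragments at the summit. They lie close together for fold enrichment, with medians of 9.21, 9.33 and 9.02.

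The peaks were then ordered by summit pileup and split into 10 groups of nearly equal size. Unmatched peaks made up 81.9% of the lowest group (79.3 to 84.3), whose pileups ran from 9 to 49 fragments. They made up 50.8% of group 5 (82 to 88 fragments) and 10.9% of group 10 (8.96 to 13.1; 124 to 317 fragments). The share was lower in each group than in the one before it. Ordered by −log10 q, the share went from 81.6% to 17.3%, and by expected pileup from 80.02% to 29.5% with its lowest value, 26.2%, in group 9.

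Ordered by fold enrichment, the lowest of 10 groups held 56.8% unmatched peaks (53.5 to 59.9). The 9 groups above it held between 45.3% and 50.1%, with no trend, and the highest held 48.4%. Above the lowest group the unmatched share thus varied little with fold enrichment, while it varied widely with summit pileup. Over the 10 groups by expected pileup, the median summit pileup rose from 39.5 to 122 fragments. Fold enrichment divides pileup by a quantity that rises with it, so it is not a measure apart from pileup. Ordered by width, the share went from 60.9% in the narrowest group to 34.9% in the widest.

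**Figure D2:**
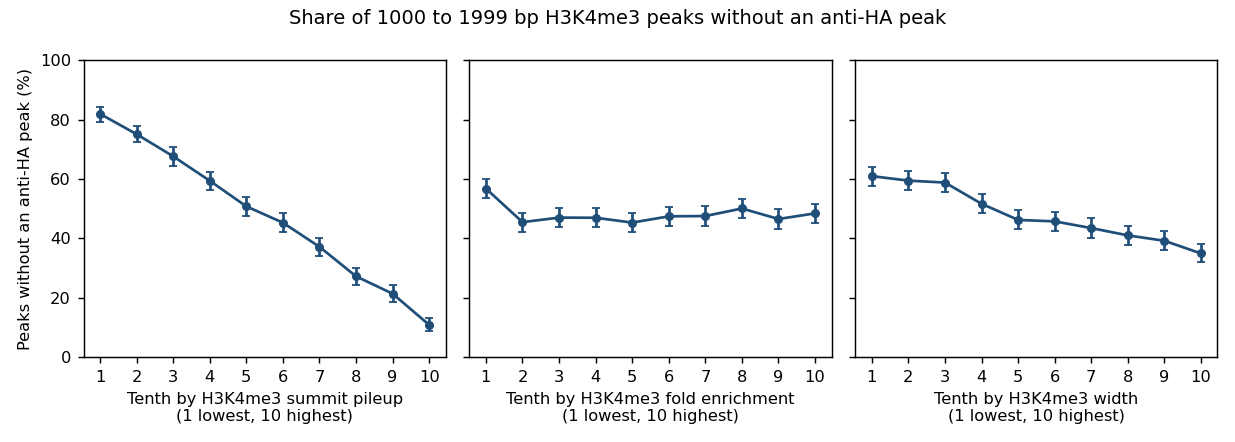
Share of ordinary-width H3K4me3 peaks without a listed anti-HA peak (%) in 10 groups of the peaks ordered by summit pileup, fold enrichment or width; bars are exact 95% intervals over peaks. The share goes from 81.9% to 10.9% across pileup and from 60.9% to 34.9% across width, and stays between 45.3% and 50.1% above the lowest group of fold enrichment.

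Width and pileup are related, so the share was also taken within 5 larger classes of pileup. These classes held 78.4%, 63.3%, 48.1%, 32.3% and 15.9% unmatched peaks. In the second class (65 to 81 fragments), the 4 width classes of 250 bp held 63.5%, 62.6%, 63.9% and 64.5% from narrowest to widest. In the fourth class (96 to 112 fragments) they held 32.9%, 33.4%, 29.8% and 32.7%. Within these 2 classes the share did not follow width.

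The outer pileup classes differed from this. Among peaks of 113 fragments or more, the narrowest width class held 24.3% unmatched peaks (19.2 to 29.8), and the 3 wider ones held 14.9%, 15.2% and 12.5%. Among peaks of up to 64 fragments, the 2 narrower classes held 77.6% and 77.3% and the 2 wider ones 84.4% and 86.7%. Among the tallest peaks the narrow ones thus held a larger unmatched share, and their interval did not overlap that of any of the 3 wider classes.

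The share by width class over all pileups lay close to the share given by pileup group. For each class each peak was given the unmatched share of its pileup group among the 10, and the mean of these was taken as the share that the pileups alone gave. The group shares came from these same peaks, so the closeness is a description and not a test. Peaks of the narrowest class were 58.5% unmatched (56.9 to 60.2) and their pileups gave 58.1%. Peaks of the widest class were 34.7% unmatched (31.8 to 37.7) and their pileups gave 35.1%. Across 5 classes of fold enrichment the share ran from 60.04% to 65.8% in the second pileup class. In the fourth pileup class it was 40.6% in the lowest class of fold enrichment (35.6 to 45.6) and between 28.1% and 32.6% in the 4 above it. In the highest pileup class it was 20.4% in the lowest class of fold enrichment (16.7 to 24.5) and 11.02% in the third (7.95 to 14.8).

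**Figure D3:**
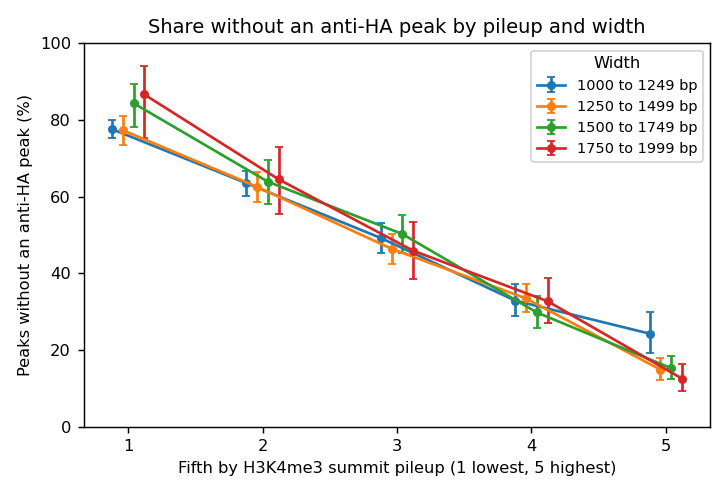
Share of H3K4me3 peaks without a listed anti-HA peak (%) by class of summit pileup (1 of 5 lowest) and width class; points are shifted sideways for clarity and bars are exact 95% intervals over peaks. All 4 width classes fall together from between 77.3% and 86.7% to between 12.5% and 24.3%.

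Width itself had a median of 1283 bp at unmatched peaks (interquartile range 1135 to 1491 bp) and of 1392 bp at matched peaks. From the narrowest to the widest 250 bp class, the unmatched peaks numbered 2057, 1390, 754 and 351. Their median pileup rose over these classes from 66 to 79, 84 and 89 fragments. Their median fold enrichment went the other way, from 10.6 to 9.12, 7.73 and 6.82, because the expected pileup rose faster, from 5.17 to 11.96 fragments. Their median −log10 q stayed between 41.3 and 47.0.

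At the lower edge of the window, the narrowest unmatched peaks were 1000 bp wide and lay at 1p36.31 (chr1:6613697-6614696, 93 fragments), 2q24.1 (chr2:158484827-158485826, 63 fragments) and 3p25.1 (chr3:13921274-13922273, 34 fragments). Just outside it were 3 peaks of 999 bp at 6p22.1 (chr6:28366976-28367974, 58 fragments), 6q15 (chr6:89672740-89673738, 80 fragments) and 8q11.23 (chr8:53477667-53478665, 51 fragments). At the upper edge stood a peak at 19p13.3 (chr19:2475545-2477543, 83 fragments), one of 1998 bp at 1q42.13 (chr1:228593247-228595244, 107 fragments) and one of 1995 bp at 20q11.21 (chr20:31171156-31173150, 73 fragments). Just outside were 3 peaks of 2000 bp at 6q27 (102 fragments), 14q13.2 (98 fragments) and 19q13.33 (108 fragments). At each edge the pileups of the 3 named peaks on either side overlapped in range. So few peaks cannot show how pileups run across an edge.

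At the matched peaks, the anti-HA pile itself rose with the H3K4me3 pile. The median pileup of the overlapping HA-BAZ2B peak was 13 fragments in the lowest of the 10 H3K4me3 pileup groups, 47 in group 5 and 75 in group 10. The median pileup of overlapping WT peaks was 26, 18 and 28 fragments in the same groups. It was lowest in group 4, at 16 fragments, and did not fall from there to group 10. Groups 1 and 2 held only 50 and 48 peaks with a WT overlap. The share of peaks without a WT peak also went down, from 94.8% in group 1 to 58.9% in group 10. The groups poorest in listed HA-BAZ2B peaks were thus those where the HA-BAZ2B peaks that were listed had the lowest piles. These medians rest on listed peaks only, which had to pass the caller and recur, and the 2 anti-HA libraries were not scaled to each other.

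The peak numbers in the lists gave a way to look at anti-HA peaks that were called in 1 library and did not reach the list. The peak caller numbers its peaks in order along the genome, and the numbers in each list rose in that order with gaps. The HA-BAZ2B list had a highest number of 16278 and 7027 rows, so that 43.2% of the numbers were kept and 9251 were missing. The WT list kept 2451 of 9696 numbers (25.3%) and the H3K4me3 list 17630 of 21906 (80.5%). A missing number was read as a peak of that single library that is not in the list used here, and its place is known only to lie between the listed peaks on either side.

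Missing HA-BAZ2B numbers were more frequent in intervals that held H3K4me3 peaks, although their place within an interval is not known. Of 3010 intervals between neighbouring HA-BAZ2B peaks that held no H3K4me3 peak, 132 had a missing number (4.39%; 3.68 to 5.18). Of 1473 intervals with 1 H3K4me3 peak of any width, 1193 had one (81.0%), and the mean count of missing numbers was 0.891. Intervals with 2, 3 and 4 H3K4me3 peaks had a missing number in 94.9%, 98.6% and 98.6% of cases. The mean count rose with the number of H3K4me3 peaks inside, to 1.73, 2.57 and 3.34.

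For 667 of the unmatched peaks (14.7%), the interval between the flanking HA-BAZ2B peaks held no other H3K4me3 peak. Of these 667 intervals, 655 had a missing HA-BAZ2B number (98.2%; 96.9 to 99.1), and 595 had exactly 1. By class of H3K4me3 pileup, from lowest to highest, the share was 94.7%, 100%, 100%, 100% and 97.9%, so it was high among unmatched peaks of every height. H3K4me3 peaks under 1000 bp that stood alone in the same way had a missing number in 465 of 710 intervals (65.5%; 61.9 to 69.0). Their median H3K4me3 pileup was 27 fragments, against 77 for the 667 unmatched peaks, and the part of that difference in the result was not tested. In nearly all of the 667 intervals, replicate 3 of HA-BAZ2B thus had a peak that the list does not hold.

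Long intervals have more room for peaks, so the comparison was repeated by length. In intervals of up to 20 kb, 1.67% of those without an H3K4me3 peak had a missing HA-BAZ2B number, against 54 of 72 intervals with 1 H3K4me3 peak of any width. In intervals over 200 kb the shares with a missing number were 7.71% without and 80.9% with an H3K4me3 peak. The contrast was present in all 5 length classes.

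In intervals with a lone unmatched peak, a missing number was less common in the WT list than in the HA-BAZ2B list. Of 76 unmatched peaks that stood alone between neighbouring WT peaks, 32 had a missing WT number (42.1%; 30.9 to 54.0). Intervals of the WT list with no H3K4me3 peak had one in 12.3% of 454 cases, and lone H3K4me3 peaks under 1000 bp in 19 of 87 (21.8%). Peaks that overlapped the HA-BAZ2B list only, and stood alone between WT peaks, had a missing WT number in 74 of 86 intervals (86.0%; 76.9 to 92.6). The share was lower for the unmatched peaks than for the peaks with HA-BAZ2B only, and the 2 exact intervals did not overlap. The lone unmatched peaks had a median H3K4me3 pileup of 81 fragments and the lone HA-BAZ2B-only peaks one of 100.5, and the part of that difference in the result was not tested.

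**Figure D4:**
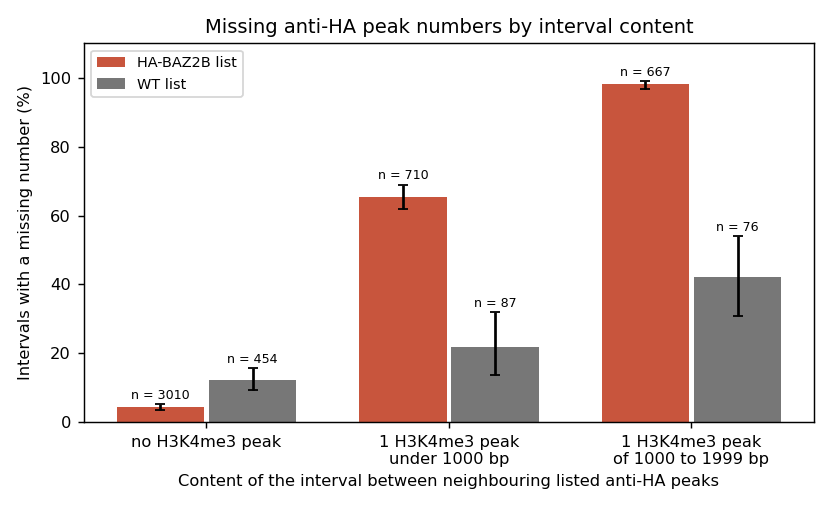
Share of intervals between neighbouring listed anti-HA peaks in which at least 1 peak number is missing (%), for the HA-BAZ2B list and the WT list, by what the interval holds: no H3K4me3 peak, 1 unmatched H3K4me3 peak under 1000 bp, or 1 unmatched peak of ordinary width; bars start at 0, error bars are exact 95% intervals and n counts intervals. For the HA-BAZ2B list the share goes from 4.39% over 65.5% to 98.2%, and for the WT list from 12.3% over 21.8% to 42.1%. The lone H3K4me3 peaks in HA-BAZ2B intervals had a median pileup of 27 fragments under 1000 bp and of 77 at ordinary width.

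Counting over all 4552 unmatched peaks gave a bound. If each missing number is given to at most 1 unmatched peak between the same flanking peaks, at most 4519 unmatched peaks could hold an unlisted HA-BAZ2B peak and at least 33 could not. At most 3736 could hold an unlisted WT peak, and at least 816 (17.9%) could not. The numbers thus leave room for an unlisted HA-BAZ2B peak at nearly all of them, without placing one there.

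Between the listed HA-BAZ2B peaks on either side, 17 unmatched peaks had no missing number at all, and 203 had none between their flanking WT peaks. The 17 had a median H3K4me3 pileup of 26 fragments. They ran from 11 fragments at 6p22.1 (chr6:28725446-28726613) through 46 at 18q21.33 (chr18:59560879-59562024) to 128 at 1q23.3 (chr1:161440505-161441807). The peak at 1q23.3 lay 274 bp from a listed HA-BAZ2B peak and 172 bp from another H3K4me3 peak, and its high local background of 33.1 fragments left a fold enrichment of 3.78. Apart from it, the peaks among these 17 had 46 fragments or fewer. These 3 regions and the 17 were singled out after their values were seen.

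The tallest unmatched peaks were few and scattered. The highest of the 10 pileup groups held 102 of them, with 124 to 165 fragments, on 14 chromosomes. They were 1526 bp wide at the median, with a median fold enrichment of 8.32 over an expected 15.5 fragments. The lowest group held 788, with 9 to 49 fragments, on 23 chromosomes, and these were 1158 bp wide at the median, with a median fold enrichment of 8.34 over an expected 3.32 fragments. The extremes of pileup thus had close median fold enrichments and differed in expected pileup, which may include the peak's own fragments. The nearest HA-BAZ2B peak lay at a median of 46.4 kb from the tall set and 111 kb from the low set.

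By fold enrichment, the first unmatched peaks were narrow and of middling pileup. The highest, at 12p13.1 (chr12:13196975-13197999), was 1025 bp wide with a fold enrichment of 15.9, 79 fragments over an expected 4.04 and a −log10 q of 68.0. The next was at 19q13.43 (chr19:57922283-57923286) with a fold enrichment of 15.6 and 93 fragments. The third, at 7q22.3 (chr7:105172194-105173314), had a fold enrichment of 15.4 with 115 fragments and a −log10 q of 93.5, and lay 9.46 kb from the nearest HA-BAZ2B peak. The other 7 of the first 10 lay at 20q13.12, 19q13.43, 1q32.3, 7q32.2, 18q23, 3p22.3 and 14q13.3, the last at a fold enrichment of 15.0 with 101 fragments and 341 kb from an HA-BAZ2B peak. All 10 had between 70 and 115 fragments, so the highest ratios came with backgrounds of 3.71 to 6.52 fragments and not with the tallest piles.

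By −log10 q the order was led by 15q22.31 (chr15:65281492-65282691) with a value of 105, 147 fragments and a fold enrichment of 12.8. It was followed by 10q25.1 (chr10:105991452-105992598) with 96.0 and 130 fragments. Then came 2 peaks at 19q13.2, chr19:40596129-40597234 with 95.2 and 126 fragments and chr19:39935331-39936914 with 94.0 and 155 fragments, and the peak at 7q22.3 named above. The second 19q13.2 peak had an unmatched neighbour 8.21 kb away (chr19:39925617-39927117), which had the highest pileup of all unmatched peaks, 165 fragments, and lay 20.8 kb from an HA-BAZ2B peak. A pileup of 164 stood at 15q24.2 (chr15:75746052-75747387) on an expected pileup of 62.5, which gave a fold enrichment of only 2.60. These last 2 were named after their values were seen.

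The weakest unmatched peaks by −log10 q lay at 4q22.3 (chr4:95575428-95576768) with 4.51 and 9 fragments and at 5p15.32 (chr5:6158979-6160100) with 5.11 and 9 fragments. Peaks at 6q21 (chr6:106545574-106546661) and Xq22.1 (chrX:101906345-101907385) both had 5.51 and 10 fragments. One at 17p11.2 (chr17:17726622-17727684) had 5.71 and 16 fragments. All 5 still recurred in at least 2 H3K4me3 replicates, by the authors' filter.

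The rule excludes a distance of 0 to a listed anti-HA peak, so the distances are a description. From the unmatched peaks the nearest HA-BAZ2B peak lay at a median of 88.3 kb (83.8 to 92.8, with an interquartile range of 34.7 to 224.5 kb). The 94 matched peaks with the WT list only also lack an HA-BAZ2B overlap. From these the nearest HA-BAZ2B peak lay at a median of 62117.5 bp (45343 to 88686), and the 2 intervals overlap. It lay within 10 kb for 288 unmatched peaks (6.33%), within 100 kb for 2450 (53.8%) and beyond 1 Mb for 216 (4.75%). The nearest WT peak was farther off, at a median of 285 kb, and the HA-BAZ2B peak was the nearer of the 2 for 3983 unmatched peaks (87.5%), with the HA-BAZ2B list being the longer list. For 4502 of the 4552, the nearest HA-BAZ2B peak overlapped another H3K4me3 peak. The share of all HA-BAZ2B peaks that overlap an H3K4me3 peak was not taken, so nothing is read from this count.

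The farthest was an unmatched peak at 4p15.1 (chr4:31997836-31999373), 5675 kb from an HA-BAZ2B peak, with 59 fragments. Others stood at 4q28.3 (4860 kb), Xq27.1 (4278 kb), Xq21.33 (4134 kb) and 4q13.1 (4036 kb), all with 55 to 68 fragments. The closest lay at 10q26.13 (chr10:126847344-126849184), 193 bp from an HA-BAZ2B peak, and at 5q14.3 (218 bp), 20q11.21 (244 bp), 19q13.12 (268 bp) and 1q23.3 (274 bp). The 17 unmatched peaks within 1 kb of an HA-BAZ2B peak had a median of 96 fragments on an expected 19.8, which gave a fold enrichment of 4.28 at the median. In 17 of the 17 cases that HA-BAZ2B peak overlapped another H3K4me3 peak of any width. This count too has no share over all HA-BAZ2B peaks beside it, and nothing is read from it.

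Spacing from other H3K4me3 peaks was close between the sets at short range and wider for unmatched peaks at long range. Another H3K4me3 peak lay within 10 kb of 861 unmatched peaks (18.9%; 17.8 to 20.1) and of 19.04% of matched peaks. The median distance to it was 35.0 kb (33.6 to 36.8) at unmatched and 32.1 kb (30.9 to 33.6) at matched peaks. The upper quartile was 83.6 kb at unmatched and 68.1 kb at matched peaks, and the largest gap 3801 kb and 1591 kb. Within 500 kb on either side, the median number of H3K4me3 peaks was 9 and 10.

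What the nearest H3K4me3 neighbour carried did differ. It overlapped a listed anti-HA peak for 37.3% of unmatched peaks (35.9 to 38.7) and for 46.5% of matched peaks (45.1 to 47.9). The difference had the same sign in 10 of 10 groups of H3K4me3 pileup, with 32.8% to 45.5% for unmatched and 42.0% to 52.2% for matched peaks, but the intervals overlapped in 8 of the 10 and the values of group 8 were 45.5% and 45.9%. Of all 16997 H3K4me3 peaks, 41.3% overlapped a listed anti-HA peak.

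The unmatched peaks and their unmatched neighbours formed runs without a listed anti-HA peak. Of the 16997 H3K4me3 peaks of any width, 58.7% overlapped no listed anti-HA peak, so runs follow from that share alone. Whether the runs below are longer than that share gives was not tested. The longest run of consecutive H3K4me3 peaks of any width lay at Xq22.1 to Xq22.2 (chrX:100673069-102912249) and held 22 peaks, of which 12 were of ordinary width. The next lay at 19q13.31 (chr19:44284099-44861288) with 20 peaks, 11 of ordinary width, and at 22q13.2 to 22q13.31 (chr22:44021237-45899052) with 18 peaks, 11 of ordinary width. The first spanned 2239 kb and the second 577 kb.

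By 1 Mb windows, unmatched peaks were densest at 9q34.3 (139 to 140 Mb of chromosome 9), where 19 of 23 peaks of ordinary width were unmatched at a median pileup of 68 fragments. The window at 14q32.33 (105 to 106 Mb of chromosome 14) held 16 unmatched of 23, and that at 9q34.11 (131 to 132 Mb of chromosome 9) 14 of 22. Windows at 16p13.3, 19p13.3 and 19q13.31 also held 14. All 6 are rich in H3K4me3 peaks, with 30 to 41 of any width in the window.

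The share of unmatched peaks differed between chromosomes, and most of these shares lay near those given by H3K4me3 pileup group. The unmatched share was lowest on chromosome 17, at 38.6% (34.6 to 42.6), where the median pileup of ordinary-width peaks was 105 fragments. Chromosomes 14 and 15 followed at 39.3% and 40.1%. It was highest on chromosome 4, at 61.6% (56.3 to 66.8), where the median pileup was 76 fragments, then on chromosome 22 at 60.4% and on chromosome 18 at 55.9%. The share that each chromosome's pileups gave was 36.8% for chromosome 17 and 58.7% for chromosome 4. It lay within the observed interval for 20 of 23 chromosomes, the exceptions being 6, 7 and 21.

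Chromosome arms were spread more widely. Of 41 arms with at least 20 ordinary-width peaks, the lowest shares were on 9p (32.8%), 19q (33.2%) and 17p (35.5%), all with median pileups of 108 to 112 fragments. The highest were on 6q (61.9%), 4q (61.9%) and 4p (61.1%), with median pileups of 74.5 to 79.5 fragments. Arms of 1 chromosome could differ strongly. The share was 33.2% on 19q and 55.5% on 19p, and 32.8% on 9p and 57.5% on 9q, and the pileups of these 4 arms gave 33.2%, 58.2%, 32.5% and 56.0%.

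**Figure D5:**
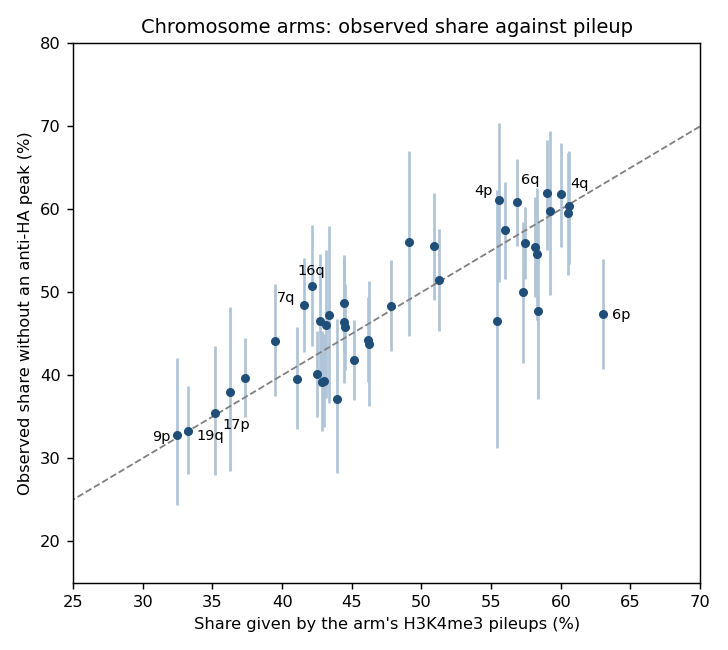
Observed share of ordinary-width H3K4me3 peaks without a listed anti-HA peak (%) against the share given by the H3K4me3 pileups of the same peaks (%), for 41 chromosome arms; vertical lines are exact 95% intervals over peaks and the dashed line marks equality. The observed shares run from 32.8% on 9p to 61.9% on 6q, 38 of 41 intervals reach the line, 6p stands below it and 7q and 16q stand above it.

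The pileup-based share lay within the observed interval for 38 of 41 arms. Intervals of small arms were wide, such as 31.2 to 62.3 on 18p, so lying within one is a weak criterion. On 7q and 16q the unmatched share was above the pileup-based share (48.4% against 41.6%, and 50.8% against 42.1%). On 6p it was below, at 47.4% (40.8 to 54.1) against 63.1%. Most of the 6p difference lay between 20 and 30 Mb, a stretch known for the main cluster of histone genes. Of 63 ordinary-width peaks there, 28.6% were unmatched (17.9 to 41.3) and the pileups gave 69.9%. An HA-BAZ2B peak overlapped 71.4% of these 63 peaks and a WT peak 20.6%, at a median H3K4me3 pileup of 50 fragments. In the other 5 windows of 10 Mb on 6p the pileup-based share lay within the interval. This window was singled out after its values were seen.

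The sets were divided alike over light bands. Light (Giemsa-negative) cytogenetic bands, which are gene-rich, held 61.9% of unmatched peaks (60.5 to 63.3) and 61.6% of matched peaks, with 42.4% of the genome. The darkest bands held 5.95% (5.28 to 6.68) and 4.77% (4.19 to 5.40), with 16.4% of the genome. By number of neighbours within 500 kb, the unmatched share was 54.0% in the sparsest of 5 groups (0 to 5 neighbours) and 44.5% in the densest (21 to 55). The pileups gave 52.8% and 44.5%, within the interval in 5 of 5 groups. By band stain, the pileup-based share lay outside the interval in bands of middle stain (gpos50), where 45.8% of 1140 peaks were unmatched (42.9 to 48.7) and the pileups gave 49.4%.

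The H3K4me3 summit lay slightly farther from the middle of an unmatched peak, at a median of 10.0% of the width (9.67 to 10.4) against 9.09% (8.76 to 9.38) at matched peaks. It lay within 10% of the width from the middle in 50.0% of unmatched peaks (48.5 to 51.4) and 54.2% of matched peaks (52.8 to 55.6). By pileup group the order was not constant: in the lowest of 10 groups 39.1% of unmatched and 44.3% of matched peaks had such a central summit, and in group 9 58.5% and 55.9% had one.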

How the data were processed

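The authors deposited 1 peak list per group, with positions in hg19 (shown 1-based), the integer score, the fold enrichment (a ratio over the caller's background), and −log10 p and −log10 q values. Per the submitters' processing notes, Bowtie2 2.4.5, Picard, SAMtools 1.15.1, bedtools and MACS2 2.1.4 were used with hg19 and dm6. The sources used here give neither the caller's settings nor any control. Per the labels, peaks present in at least 2 replicates were kept, with rows from the largest replicate file. The deposited score repeats the −log10 q and was not used.

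An overlap needed 1 bp. Pileup n and expected pileup λ were solved from fold = (n + 1)/(λ + 1) and the Poisson p. Only whole numbers were tried for n, and n was accepted where its −log10 p lay within 0.001 of the deposited value. For 8 HA-BAZ2B peaks there was more than 1 solution. The solver was tested on simulated rows. Bands came from circlize 0.4.16 and chromosome lengths from GenomeInfoDb 1.38.1 (R 4.3.3) and the remaining work ran in Python 3.11.15 (scipy 1.17.1, pandas 2.3.3, numpy 2.4.6). The 3 groups of 3 libraries follow the sample titles. Regions were named by rule: the 10 highest by fold enrichment, the 5 highest and 5 lowest by −log10 q, the 3 at each width edge and the 3 just outside, the 5 farthest from and 5 closest to an HA-BAZ2B peak, the 3 densest 1 Mb windows, and the 3 chromosomes and arms at each end. The members, lists and this rule were chosen with earlier results of these data known. Genes and sequences in hg19 were not used here.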

Additional observations from a re-analysis of the deposited data

Results flagged for a closer look

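Outside chromosomes 1 to 22 and X, 101 of 231 H3K4me3 peaks of ordinary width had no listed anti-HA peak. Among those on chromosomes 1 to 22 and X, 4552 of 9457 had none (48.1%), so the number 101 alone does not stand out. The comparisons above do not use these 101 peaks, and their median summit pileup was 36 fragments. Alternative haplotypes of chromosome 6 held 87 of them, out of 193 peaks of that width, at a median of 34 fragments. Chromosome Y held 5 of 9, at a median of 56 fragments. Haplotype contigs repeat sequence of chromosome 6, so the same regions may appear more than once.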

How the results depend on the processing

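No paired analysis was possible because the lists hold no value per replicate, and for the same reason leaving out each replicate could not be run. Each of 16 results was recomputed under 6 alternatives, and a value inside the main interval was counted as unmoved. The number of unmatched peaks, which has no interval, was counted as unmoved within 1.5 times of 4552, and ran from 3447 (narrower window) to 4748 (50% cover). The results on pileup and on missing peak numbers, with their alternatives, were added after seeing the data. With a window from 1000 bp to just under 1500 bp, 10 of 16 moved: the unmatched share became 52.5%, the median −log10 q 45.6, fold enrichment 9.91, expected pileup 6.04, summit pileup 72, width 1203 bp and summit distance from the middle 8.96%, and the share was 14.8% in the highest of the 10 pileup groups, 46.1% on chromosome 17 and 67.2% on chromosome 4. With an anti-HA peak required to cover 50% of the H3K4me3 peak, 3 of 16 moved: the share became 50.2%, the share in the lowest of the 10 pileup groups 87.0% and the median distance to an HA-BAZ2B peak 83.8 kb. With anti-HA peaks of a −log10 q of at least 5 only, the share in the lowest pileup group became 84.4% and the other 15 stayed. By these rules none of the 16 moved with the same threshold on the H3K4me3 list, with anti-HA peaks within 1 kb also counted, or with the HA-BAZ2B list alone. These settings kept 4551, 4526 and 4646 unmatched peaks, nearly the same set, so the values had little room to move. The lists give no total depth, each row is 1 library's, and a missing peak number gives neither the place nor the strength of the peak it stands for.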
